A study of Mus musculus with 6 samples.

Results

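The genes described here encode the proteins of the cytosolic ribosome, and they were taken as the protein-coding rows of the count table whose symbol is Rps or Rpl followed by a number and at most 1 further letter. The rule found 76 of 54532 rows, 30 for the small subunit (Rps) and 46 for the large subunit (Rpl). It leaves out 10 genes of the cytosolic ribosome, or close paralogs of them, with other symbols, such as Rplp0, Rplp1, Rplp2, Rpsa and Fau. The rule reads symbols and biotypes only. RNA came from spinal cord, and all mice, of the C57BL/6J strain, had an injured cord. One group, labelled SCIT, had been trained on the rotarod, a turning rod on which a mouse has to keep walking. The other, labelled SCI, had not been trained, and each group holds 3 libraries. All 6 libraries are labelled as day 28, counted from training. No uninjured cord is among the samples, and the labels do not say whether mice were pooled or whether each library is a separate mouse. P-values therefore measure only the spread between these libraries, which may be technical.

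A ribosome is built from ribosomal RNA and proteins that are present in nearly equal amounts. The small subunit binds and reads the messenger RNA and the large subunit joins the amino acids. Cells make the proteins of both subunits in matched amounts, largely through a shared start sequence of their messages, a run of C and T at the 5′ end known as the TOP motif, through which the kinase mTORC1 and the RNA-binding protein Larp1 set their translation. In the nervous system these messages are also carried into axons and dendrites.

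The start windows below show a run of C and T at or near the annotated start in genes of both subunits that the results name. In Rps12 the run does not include the annotated start: it lies downstream and reaches the end of the window. Each window spans 12 bases before to 18 bases after the annotated start, is printed 5′ to 3′ on the gene's strand, and has the longest run of C or T in capitals. They are RefSeq sequences of the GRCm38.p6 build.
Rps6 (chr4:86857350-86857379, minus strand): cggaagtcgggCCTCTTTTTCgtgacgcct
Rps10 (chr17:27635227-27635256, minus strand): ccgcgcacgCCCCTTCCTTTCCagcctccg
Rps12 (chr10:23787192-23787221, minus strand): cgtcatgcggccaccgccggCCTTTTCCCC
Rps27 (chr3:90213631-90213660, minus strand): tccgctttcgCTCCTTTCCggcggtgacga
Rpl28 (chr7:4792953-4792982, plus strand): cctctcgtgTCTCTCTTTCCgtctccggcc
Rpl35 (chr2:39005114-39005143, minus strand): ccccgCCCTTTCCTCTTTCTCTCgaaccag
Rpl38 (chr11:114668568-114668597, plus strand): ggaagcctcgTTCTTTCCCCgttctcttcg

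Among the 57 ribosomal protein genes with a listed start, 41 (71.9%) held an unbroken run of at least 8 C or T between 20 bases before and 40 bases after it. The share was 68.2% in the small and 74.3% in the large subunit, against 24.4% of 16497 protein-coding genes with a listed start. Genes of the mitochondrial ribosome, which translates only the messages of the mitochondrial genome, stood at 26.1%. A second motif, CCGGAAG or its complement CTTCCGG, the core bound by ETS factors such as GABP, was looked for on both strands of the 250 bases before the start. It was found in 16 ribosomal protein genes (28.1%), in 26.1% of mitochondrial ribosomal protein genes and in 10.5% of all genes. The search windows share the 20 bases before the start, and the CTTCC of the second motif can lie in a run. These are counts of letters and not of bound sites.

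The 6 libraries held 15814104 to 26092014 counts. A row with no count could hold up to 3 counts unseen, which is 0.116 to 0.192 CPM (counts relative to the TMM-scaled library size). Library values are listed in the order of replicates 1, 2 and 3 throughout. Over all genes 10 of 16909 (0.0591%) passed edgeR's quasi-likelihood test at a Benjamini-Hochberg adjusted p of 0.05. The tissue label was checked against summed marker levels. Neuron markers were at 5655 to 7398 CPM, oligodendrocyte markers at 32696 to 41621 CPM and astrocyte markers at 6631 to 8594 CPM, with every marker of these lists detected. Markers of other cells differed between libraries. Neutrophil markers summed to 31.9, 66.2 and 58.6 CPM in the trained libraries, against 23.4, 20 and 15.2 CPM in the untrained ones, and all 8 had a log2 fold change above 0. In edgeR 0 of the 8 passed and 7 had an unadjusted p below 0.05, all higher, where 4.47% of all genes were higher. Limma-voom called 0, and DESeq2 called 4, where 0.478% of all genes passed. Microglia and macrophage markers summed to 681, 727 and 1095 CPM in the trained and 1015, 893 and 921 CPM in the untrained libraries. A log2 fold change above 0 was found in 0 of these 8 markers and in 0 of 5 endothelial markers, against 48.0% of all genes. The part of these cells in the values below was not tested. In RNA of whole tissue, more cells of a type and more RNA per cell cannot be told apart.

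No ribosomal protein gene passed the test between trained and untrained cord: 0 of 73 genes tested, 0 of 30 small-subunit and 0 of 43 large-subunit genes, against the 0.0591% called over all genes. The smallest adjusted p in edgeR was 0.223 (Rpl30) in the large subunit and 0.516 (Rps26) in the small one. At an unadjusted p below 0.05 edgeR had 3 of 73 (4.11%), namely Rpl30, Rpl35 and Rpl32, all higher in trained cord, where 4.47% of all genes were higher at that p. The share in either direction over all genes was 10%, so the genes did not stand out by that count. Limma-voom called 0 of them. DESeq2 called 1, Rpl30, as did edgeR without the filter on low counts, and its values are given below. Leaving out trained replicate 1 gave 1 other, Rps12.

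The differences were small, and more of them lay above 0 than below. The log2 fold change (trained over untrained) was above 0 in 48 of 73 genes (65.8%), against 48.0% of all genes tested and 41.0% of the 4380 genes at 50 to 600 CPM, the range of most ribosomal protein genes. Its median was 0.052, against -0.008 over all genes and -0.024 in that range. In 62 of 73 genes it lay within 0.2 of 0, and the median standard error of these genes was 0.086. In 10 of 73 genes (13.7%) every trained library lay above every untrained one, against 8.13% of all genes. Among them were Rps10, Rps26, Rpl13, Rpl13a, Rpl29, Rpl30, Rpl32, Rpl34 and Rpl35. In no ribosomal protein gene did every trained library lie below, against 8.69% of all genes. With 2 libraries left in a group, fewer values have to be separated, and the share over all genes was larger as well. Without trained replicate 1, 2 or 3 there were 6, 6 and 3 of 30 small-subunit and 14, 10 and 7 of 43 large-subunit genes higher without overlap, against 12.5%, 12.3% and 14.7% of all genes. Without untrained replicate 1, 2 or 3 there were 4, 9 and 3 in the small and 10, 14 and 7 in the large subunit, against 12.7%, 13.6% and 12.7% of all genes. The 3 and 7 genes left without replicate 3 of either group equal the counts with all libraries (13.7% of the 73). By that count the genes stood close to the 14.7% and 12.7% of all genes.

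**Figure D1:**
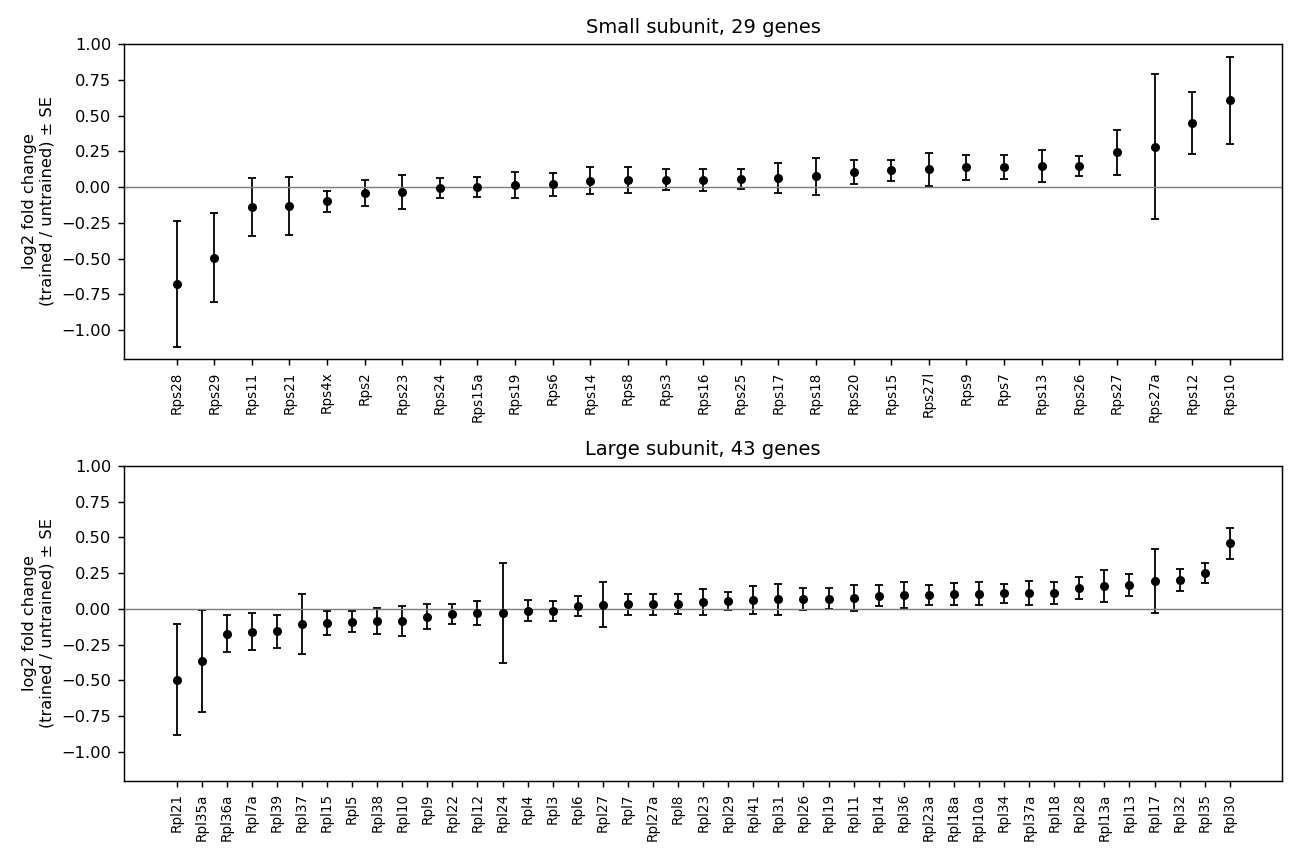
Log2 fold change (trained over untrained, vertical axis) of tested ribosomal protein genes, in order of value, for the small subunit (upper panel, 29 genes shown) and the large subunit (lower panel, 43 genes). Points are edgeR estimates from 3 libraries per group and bars are ± 1 SE; most lie within 0.2 of 0, and the widest bars belong to Rps27a, Rps28, Rpl21, Rpl24 and Rpl35a.

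Neither subunit separated the groups by its summed level. Small-subunit genes summed to 5488, 5494 and 6022 CPM in the trained libraries, against 5383, 5874 and 5241 CPM in the untrained ones. Large-subunit genes summed to 8076, 8186 and 8811 CPM in the trained and 7945, 8456 and 8028 CPM in the untrained libraries. Trained replicate 3 was the highest for both subunits, untrained replicate 2 came next, and the groups overlapped. The means were 5668 ± 306 against 5499 ± 333 CPM for the small subunit and 8357 ± 396 against 8143 ± 274 CPM for the large one (SD, n = 3 per group), in each case 1.03 times as much in trained cord and a difference smaller than 1 SD. The summed level of the small over the large subunit was 0.678 ± 0.00631 in trained and 0.675 ± 0.0211 in untrained cord, and ran from 0.6528 in untrained replicate 3 to 0.6947 in untrained replicate 2. The median log2 fold change was 0.055 in the small and 0.048 in the large subunit. Their difference was 0.007, and it lay between -0.016 and 0.025 when each library was left out in turn. Together all 76 genes, tested or not, took 1.34%, 1.36% and 1.51% of all counts in the trained libraries and 1.35%, 1.42% and 1.3% in the untrained ones.

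**Figure D2:**
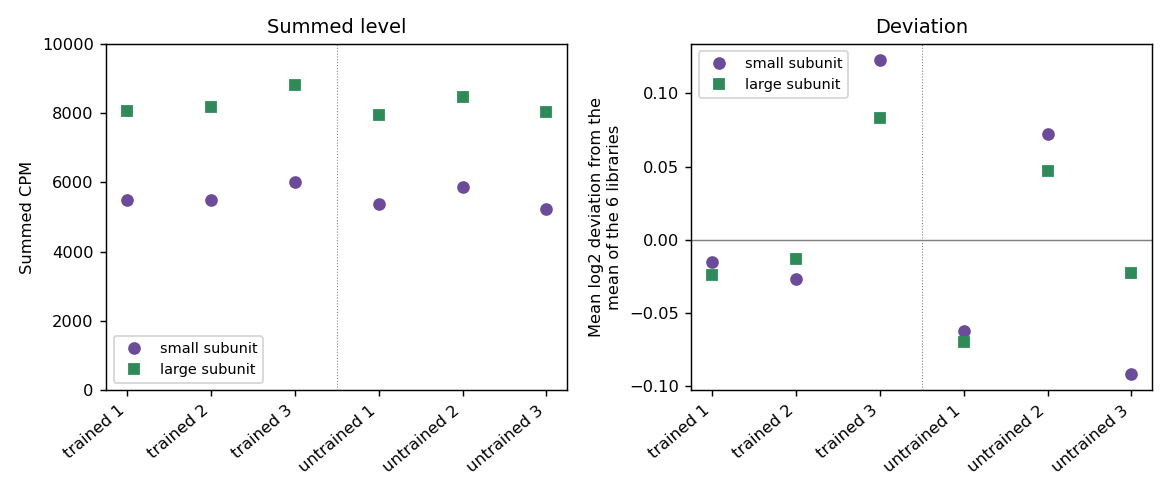
Summed CPM of the tested genes of each subunit in each library (left) and the mean of their log2 deviations from the mean of the 6 libraries (right), circles for the small and squares for the large subunit, with no error bars because each point is 1 library. Trained replicate 3 and untrained replicate 2 lie above 0 on the right for both subunits, and untrained replicates 1 and 3 and trained replicates 1 and 2 lie below.

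Single libraries moved the subunits together. Trained replicate 3 had the highest value of the 6 libraries in 33 of 73 genes and untrained replicate 2 in 27, while untrained replicate 2 also had the lowest value in 21. The mean log2 deviation from the mean of all libraries was 0.123 and 0.083 in trained replicate 3 for the small and the large subunit, and 0.072 and 0.047 in untrained replicate 2. Between libraries it had an SD of 0.085 in the small and 0.059 in the large subunit, and their difference had an SD of 0.04. The mean deviation ran wider between libraries in genes with short coding sequences. The 36 genes below the median coding length of 456 bases had means of -0.059, -0.012 and 0.126 in the trained libraries. In the untrained ones their means were -0.093, 0.114 and -0.075. For the 37 longer genes the mean stayed between -0.04 and 0.074. Among these longer genes was Rps27a (468 coding bases), with the largest within-group SD of the set (0.627, log2). Other protein-coding genes below 456 coding bases (615 genes at 10 CPM or more) had means of 0.059 in trained replicate 3 and 0.052 in untrained replicate 2. The part of length in this was not tested.

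Levels within the set are given per kilobase of exon. In 72 of 76 genes the length used equals the union of all annotated exons. It depends on the annotation, with 6256 bases for Rps24 and 383 for Rpl36, so the order of levels is a rough one. In the large subunit the highest were Rpl36 at 439, Rpl19 at 275 and Rpl4 at 273 CPM per kilobase. Rpl4 reaches into the tunnel through which the new protein leaves. In the small subunit the highest were Rps15 at 415, Rps6 at 223 and Rps14 at 211 CPM per kilobase. The 3 lowest large-subunit genes were paralogs expressed mainly in other tissues, and the filter on low counts removed all 3 from the test. Rpl10l, a testis paralog of Rpl10, had 0 counts in every library, which allows up to 0.116 to 0.192 CPM. Rpl39l, a paralog of Rpl39 that is also high in testis, had 1 count in untrained replicate 2, 3 in untrained replicate 3 and 0 in the others. Rpl3l, which replaces Rpl3 in skeletal and heart muscle, had 11, 5 and 7 counts in the trained and 10, 7 and 9 in the untrained libraries. The 3 lowest small-subunit genes were Rps10 at 0.692, Rps28 at 22.0 and Rps27l at 25.2 CPM per kilobase.

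Some rows of the set lie inside longer rows. Rps10, Rpl24, Rpl13 and Rpl13a each lie inside a longer row of the same strand that has 0 counts in all libraries, and Rpl19 lies inside Gm11629, which has 33 counts in all. Rpl24 (trained 1.26 ± 0.286 and untrained 1.30 ± 0.422 CPM) and Rpl13a (16.3 ± 0.427 and 14.6 ± 0.952 CPM) were among the lowest of the large subunit, while Rpl13 was at 401 ± 24.8 and 357 ± 16.6 CPM. For 27 genes the row also holds snoRNA genes of the same strand, 52 in all, and 20 genes are overlapped by a row of the other strand, from which they cannot be told apart where reads were counted without strand.

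Near-identical copies held part of the counts. Ribosomal protein messages have been copied into the mouse genome many times, and 1400 rows of the table, nearly all annotated as pseudogenes, matched the coding sequence of 72 of the 76 genes at 85% identity or more over at least 150 bases. Reads of such copies and of the source gene can be split between rows. In 50 of the 73 tested genes the gene's own row held at least 90% of the counts of the gene and its copies together. In 5 it held under 50%: Rps10 (2.32%), Rpl17 (20.2%), Rpl24 (28.6%), Rpl21 (33.0%) and Rpl7a (41.6%). The row of Rps10 was at 1.6 CPM on average, while its copy Rps10-ps2, which is 99.1% identical over 456 coding bases, held 60, 60.8 and 62.5 CPM in the trained libraries and 65.5, 54.1 and 65.8 CPM in the untrained ones. Which of the rows the reads came from cannot be told apart from these counts.

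Rpl30, a small protein at the face between the subunits, had the smallest p of the set, and its copies ran the other way. Its own row (ENSMUSG00000058600, chromosome 15, 34440505 to 34443640, minus strand, in the table's coordinates) held 127, 143 and 158 CPM in the trained libraries, against 121, 93.3 and 96.6 CPM in the untrained ones. Every trained library lay above every untrained one, with untrained replicate 1 close to trained replicate 1. The log2 fold change was 0.46 ± 0.11 (SE), with an adjusted p of 0.223 in edgeR. It passed in DESeq2 (0.46, adjusted p = 0.0114, where 0.478% of genes passed) and in edgeR without the filter on low counts (0.47, adjusted p = 5.54e-06, 0.909% of genes), and lay between 0.39 and 0.59 when each library was left out, with edgeR adjusted p-values of 0.0617 to 0.595.

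The row Rpl30-ps10 (chromosome X, 71803688 to 71804034, plus strand) was at 3.37, 1.30 and 1.92 CPM in the trained and at 9.23, 20.4 and 13.2 CPM in the untrained libraries. The row Gm12191 (chromosome 11, 49678710 to 49679057, minus strand) was at 4.45, 1.48 and 2.92 against 8.63, 33.0 and 16.1 CPM. In both copies every trained library lay below every untrained one, and untrained replicate 2, the lowest library of the Rpl30 row, was the highest. Their log2 fold changes were -2.65 ± 0.44 for Rpl30-ps10 (adjusted p = 0.209 in edgeR) and -2.65 for Gm12191 (adjusted p = 0.386 in edgeR). The other 18 copies together reached at most 4.33 CPM. With the counts of all 20 copies added, Rpl30 was at 136, 146 and 164 CPM in the trained and 140, 151 and 128 CPM in the untrained libraries. The groups then overlapped, and the log2 fold change was 0.085 (adjusted p = 0.780 in edgeR). With only the rows named as Rpl30 pseudogenes added, which leaves out Gm12191, it was 0.27 (adjusted p = 0.337 in edgeR).

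Little separates these rows in sequence. Over the 345 coding bases of Rpl30 without its stop codon, as GENCODE M21 gives them on GRCm38, Gm12191 differs at 1 position (identity 99.7%) and Rpl30-ps10 at 3 (99.1%). Many 150 bp reads from the coding sequence can therefore carry the same letters in all 3 rows.

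**Figure D3:**
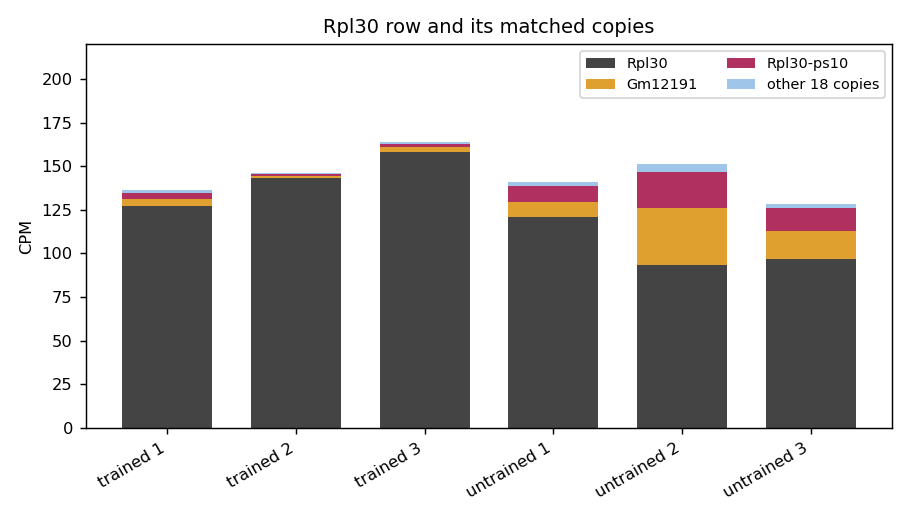
Stacked CPM of the Rpl30 row, of Gm12191, of Rpl30-ps10 and of the other 18 matched copies in each of the 6 libraries (vertical axis, from 0). The Rpl30 row is higher in the trained libraries and the copies are higher in the untrained ones; the full bars run from 128 to 164 CPM and overlap between the groups.

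Across the whole set, adding the copies brought the largest differences towards 0. Without copies, 6 genes had a log2 fold change of at least 0.4 in size (Rps10, Rpl30, Rps12, Rps28, Rps29 and Rpl21). With copies added all 6 were smaller, and 1 of them, Rps29 at -0.47, remained past 0.4. Rps10 went from 0.61 to 0.020, Rpl21 from -0.49 to 0.005, Rps12 from 0.45 to 0.19 and Rps28 from -0.68 to -0.36. This matching of copies by sequence was chosen after the values were seen. The 6 genes were picked by the size of their own-row values, so their move towards 0 is no test. The own row of Rps10 held 2.32% of the counts of the gene and its copies, so its value with copies is mostly theirs. With only pseudogene rows named for the gene, Rps10 was at 0.020, Rps12 at 0.19, Rpl21 at -0.10 and Rpl30 at 0.27, while Rps28 and Rps29 stayed at -0.68 and -0.50. Signs and medians changed less: 51 of 73 genes lay above 0, and the medians were 0.055 in the small and 0.045 in the large subunit. With copies added 0 genes passed. Without overlap 7 of 73 genes were then higher and 1 lower, against 10 and 0 from the own rows alone. Over all genes, without copies added, 8.13% were higher and 8.69% lower without overlap. Of the copies themselves 124 rows were high enough to test. None of them passed, 54 had a log2 fold change above 0, their median was -0.046, and 21 (16.9%) had an unadjusted edgeR p below 0.05, against 10% of all genes.

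**Figure D4:**
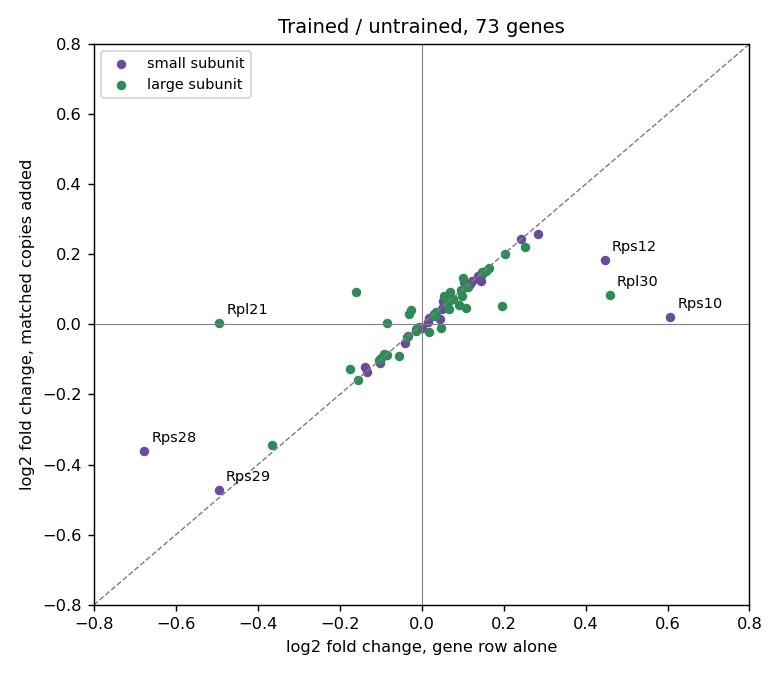
Log2 fold change (trained over untrained) of each of the 73 tested genes from its own row (horizontal axis) and with the counts of its matched copies added (vertical axis), purple for the small and green for the large subunit; the dashed line marks equal values. Rps10, Rpl30, Rps12, Rpl21 and Rps28 lie nearer to 0 on the vertical axis than on the horizontal one, and Rps29 stays close to the line.

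Rpl35 and Rpl32 were the next large-subunit genes by p, and adding copies changed them little. Rpl35, which sits near the exit of the peptide tunnel and whose start has the longest printed run of C and T, held 115, 124 and 128 CPM in the trained libraries, against 103, 98.1 and 107 CPM without training. The groups did not overlap. Its log2 fold change was 0.25 ± 0.07 (adjusted p = 0.272 in edgeR), and 0.22 with copies added (adjusted p = 0.343). Rpl32, which lies on the large subunit, held 165, 167 and 188 CPM with training, against 160, 144 and 147 CPM without. The nearest libraries of the groups, trained replicate 1 and untrained replicate 1, were 165 and 160 CPM. Its log2 fold change was 0.20 ± 0.08 (adjusted p = 0.404 in edgeR), and 0.20 with copies added as well.

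Rpl13 held 389, 385 and 429 CPM in the trained libraries, against 371, 339 and 363 CPM in the untrained ones, again without overlap, at a log2 fold change of 0.17 ± 0.08 (adjusted p = 0.502 in edgeR). Rpl28 was at 203, 214 and 239 against 206, 193 and 194 CPM. Here trained replicate 1 lay below untrained replicate 1, and the log2 fold change was 0.15 ± 0.08 (adjusted p = 0.546 in edgeR).

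In the small subunit Rps26, at the channel where the messenger RNA leaves the ribosome, had the smallest p. It held 210, 195 and 211 CPM in the trained libraries, against 189, 190 and 177 CPM in the untrained ones, a log2 fold change of 0.15 ± 0.07 (adjusted p = 0.516 in edgeR). Its groups did not overlap, with the nearest libraries at 195 and 190 CPM. Rps7, which takes part in processing of the pre-ribosomal RNA, was at 257, 282 and 284 against 266, 222 and 257 CPM, with overlapping groups and a log2 fold change of 0.14 ± 0.08 (adjusted p = 0.593 in edgeR).

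Rps10, of the head of the small subunit, had the largest positive value, at a level of few counts. It held 2.25, 1.67 and 1.86 CPM in the trained libraries, against 1.15, 1.08 and 1.6 CPM in the untrained ones, a log2 fold change of 0.61 ± 0.30 (adjusted p = 0.521 in edgeR). With its copies it was at 67.7, 69.0 and 71.6 against 72, 60.3 and 73 CPM. Rps12 held 76.2, 110 and 128 CPM with training, against 86.5, 66.5 and 77.0 CPM without. Trained replicates 2 and 3 lay above all untrained libraries and trained replicate 1 below untrained replicates 1 and 3. Its log2 fold change was 0.45 ± 0.22 (adjusted p = 0.560 in edgeR), and without trained replicate 1 it passed, at 0.64 (adjusted p = 0.0486, where 0.122% of genes passed). Its copy Rps12-ps3 was identical over the 384 bases that were matched, out of 444 coding bases. It was at 59.3, 71.9 and 72.3 against 84.3, 56.8 and 81.5 CPM. Reads that lie within the matched bases cannot be divided between these rows by sequence.

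The largest negative values rested on 1 untrained library each. These genes were picked after their values were seen. Rps28, a short protein of the small subunit, held 22.4, 21.9 and 30 CPM in the trained libraries, against 25.4, 63.9 and 29.4 CPM in the untrained ones, a log2 fold change of -0.68 ± 0.44 (adjusted p = 0.680 in edgeR). Rps29, a zinc-binding protein of the small subunit, was at 74.4, 89.2 and 90.2 against 89.4, 173 and 95.0 CPM, a log2 fold change of -0.50 ± 0.31 (adjusted p = 0.668 in edgeR). In both genes untrained replicate 2 stood far above the other 5 libraries, and without it the log2 fold changes were -0.15 and -0.13. Rpl35a followed the same pattern, at 58.3, 52.7 and 66.5 against 54.0, 116 and 59.2 CPM (-0.37 ± 0.36, adjusted p = 0.794 in edgeR), and lay at 0.064 without untrained replicate 2. For Rpl21 it was untrained replicate 3 that stood apart. Rpl21 was at 36.2, 28.8 and 31.1 against 26.5, 41.3 and 68.2 CPM (-0.49 ± 0.39, adjusted p = 0.740 in edgeR), and at -0.079 without that library.

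**Figure D5:**
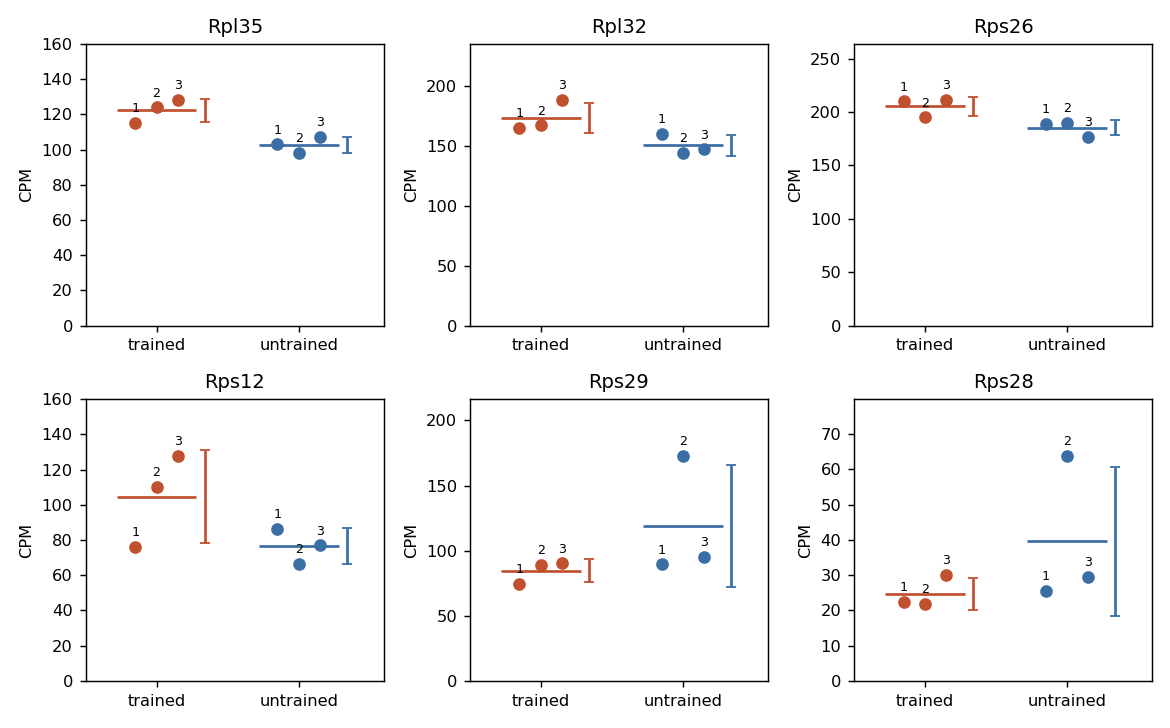
CPM in each library (points, numbered by replicate) of Rpl35, Rpl32, Rps26, Rps12, Rps29 and Rps28, with the group mean (horizontal line) and ± 1 SD (bar beside it, n = 3 per group); all vertical axes start at 0. The groups do not overlap in the upper 3 genes, while in Rps29 and Rps28 untrained replicate 2, at 173 and 63.9 CPM, lies far above the other libraries.

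Genes known for roles beyond the ribosome's core work differed little. Rps6, the ribosomal substrate of the S6 kinases downstream of mTORC1, averaged 356 ± 16.6 CPM with training and 352 ± 25.5 CPM without (SD, n = 3 per group, as below), a log2 fold change of 0.019 ± 0.079. Rps19, the gene most often affected in Diamond-Blackfan anaemia, was at 155 ± 13.5 and 153 ± 18.1 CPM (0.015 ± 0.093), and Rps3, at the channel where the messenger RNA enters, at 356 ± 15.1 and 343 ± 13.4 CPM (0.051 ± 0.073). In all 3 the difference was smaller than 1 SD of the libraries. The sign for Rps6 and Rps19 turned when single libraries were left out. Rps4x, the X-linked form of Rps4, was at 258 ± 15.2 and 277 ± 11.1 CPM (-0.10 ± 0.07). Rps27, a zinc-finger protein, was at 77.6 ± 6.10 and 65.5 ± 14.3 CPM (0.24 ± 0.16), and its paralog Rps27l, a p53 target gene, at 21.4 ± 2.85 and 19.6 ± 0.349 CPM (0.12 ± 0.11). Rps27a, which is made as a fusion with ubiquitin, varied more than any of these. It held 184, 75.6 and 91.1 CPM in the trained libraries, against 138, 88.8 and 62.4 CPM in the untrained ones, high in replicate 1 of both groups. Its log2 fold change of 0.28 ± 0.51 turned to -0.21 without trained replicate 1.

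In the large subunit Rpl5 and Rpl11, which with the 5S ribosomal RNA bind Mdm2 and so link ribosome assembly to p53, were at 243 ± 16.0 against 259 ± 9.47 CPM and at 250 ± 14.5 against 237 ± 30.9 CPM. Their log2 fold changes, -0.091 ± 0.074 and 0.076 ± 0.092, lay on opposite sides of 0 and close to it. Rpl10, which joins last and is needed for the large subunit to become active, was at 266 ± 31.0 and 282 ± 35.8 CPM (-0.084 ± 0.105, and 0.024 without untrained replicate 2). Rpl3, which reaches the centre where peptide bonds are made, was at 495 ± 9.22 and 499 ± 8.12 CPM (-0.013 ± 0.070), and Rpl4 at 545 ± 13.0 and 550 ± 25.7 CPM (-0.013 ± 0.074). These were among the most even values of the set. Rpl38, which in mouse embryos is needed for translation of Hox messages, was at 83.1 ± 6.89 and 88.1 ± 9.52 CPM (-0.084 ± 0.090, and 0.005 with copies added). Rpl39, of the exit tunnel, was at 117 ± 14.3 and 130 ± 17.9 CPM (-0.16 ± 0.12). Rpl41, the smallest ribosomal protein, was at 250 ± 32.3 and 240 ± 19.0 CPM (0.062 ± 0.098). Rpl13a, which can leave the ribosome to silence inflammatory messages in myeloid cells, had a log2 fold change of 0.16 ± 0.11. The edgeR adjusted p of the 16 genes of this paragraph and the one before it was at least 0.660.

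Genes that act with the ribosomal proteins did not pass either, in edgeR, DESeq2 or limma-voom. Of the genes outside the naming rule 9 were tested and 0 passed, with 1 at an unadjusted edgeR p below 0.05. A log2 fold change above 0 was found in 7 of the 9, against 48.0% of all genes, and their median was 0.013. Rplp1, of the stalk that recruits elongation factors, averaged 560 ± 29.2 CPM with training and 497 ± 28.9 CPM without (0.17 ± 0.08, adjusted p = 0.497 in edgeR), and Fau at 258 ± 26.0 and 235 ± 7.77 CPM (0.13 ± 0.08, adjusted p = 0.614 in edgeR). Of 16 other translation genes whose messages carry the TOP motif, 0 passed and 1 had an unadjusted edgeR p below 0.05. Of these genes 6 lay above 0, with a median of -0.036. Over all genes 10% had such a p and 48.0% lay above 0. The median of all genes at 50 to 600 CPM was -0.024. The initiation factor gene Eif4b was at 212 ± 2.41 and 241 ± 13.5 CPM (-0.19 ± 0.07, adjusted p = 0.399 in edgeR), and Npm1, of the nucleolus, at a log2 fold change of -0.11 ± 0.08.

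Of 14 genes of the mTORC1 pathway and of TOP message control, 0 passed and 1 had an unadjusted edgeR p below 0.05, against 10% of all genes. Of these genes 6 lay above 0, against 48.0% of all genes, with a median of -0.015. Rps6kb1, the S6 kinase gene whose product phosphorylates Rps6, held 36.5, 35.9 and 32.2 CPM in the trained libraries, against 44.5, 45.3 and 42.1 CPM in the untrained ones. The groups did not overlap, at a log2 fold change of -0.33 ± 0.08 (adjusted p = 0.218 in edgeR). Larp1, which binds TOP messages, was at 138 ± 9.58 and 151 ± 3.44 CPM (-0.14 ± 0.07, adjusted p = 0.547 in edgeR).

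Ribosome biogenesis (27 genes) and RNA polymerase I transcription (12 genes) had 0 genes past the test, and medians of 0.022 and 0.002. A log2 fold change above 0 was found in 17 of the 27 and in 6 of the 12, against 48.0% of all genes. At an unadjusted edgeR p below 0.05 they had 2 and 0, against 10% of all genes. The RNA helicase gene Ddx21 was at 30.2 ± 2.35 and 36.8 ± 0.917 CPM (-0.29 ± 0.09, adjusted p = 0.317 in edgeR) and Bop1, of large-subunit processing, at 40.7 ± 2.13 and 35.1 ± 3.26 CPM (0.21 ± 0.09, adjusted p = 0.457 in edgeR). These are the 2 biogenesis genes of smallest p, and they lay on opposite sides of 0. Rrn3, the initiation factor of RNA polymerase I, was at -0.15 ± 0.08 and Taf1d at -0.23 ± 0.17. Among 7 snoRNA host genes 0 passed, also by unadjusted p, and 1 lay above 0, against 48.0% of all genes. Their median was -0.073, with Snhg12 at -0.25 ± 0.15 and Snhg5 at -0.24 ± 0.19.

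The proteins of the mitochondrial ribosome come from a separate set of 78 nuclear genes, of which 77 were tested and Mrpl53 had 0 counts. None passed in edgeR, DESeq2 or limma-voom. At an unadjusted edgeR p below 0.05 there were 9, all higher, against 4.47% of all genes. Of the 77, 63 lay above 0 (48.0% of all genes), 19 were higher and 0 lower without overlap (8.13% and 8.69% of all genes), and the median was 0.089. Mrps24 averaged 31.6 ± 2.10 CPM with training and 25.2 ± 0.692 CPM without (0.32 ± 0.09, adjusted p = 0.268 in edgeR), and Mrps16 at 23.2 ± 1.26 and 18.9 ± 0.288 CPM (0.29 ± 0.10, adjusted p = 0.348 in edgeR). Its median and its share above 0 were larger than those of the cytosolic set (0.052 and 48 of 73). Whether the sets differ was not tested.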

How the data were processed

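The authors deposited raw counts in 1 table with a row per Ensembl gene, its symbol, coordinates, length and biotype, and no normalization. Per the labels' protocols it rests on total RNA extracted with TRIzol and 150 bp paired-end reads from an Illumina NovaSeq. Per the submitters' processing notes Bowtie 0.12.2 was used, and mm8 as well as mm9 are named there without a role. The counter, the use of strand and the treatment of reads that match several places were not given in the sources used here. Of 54409 gene IDs found in GENCODE M21 (GRCm38), 98.3% had the same coordinates, and positions are printed as the table gives them.

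The comparison used the quasi-likelihood test of edgeR 4.0.16 (R 4.3.3), with group in the model, TMM factors, robust estimation and the filterByExpr filter. It was run on 16909 genes, with Benjamini-Hochberg adjustment over them and a threshold of 0.05. The common biological coefficient of variation was 0.122. Intervals are SD over 3 libraries or, for log2 fold changes, standard errors derived from the F statistic of the edgeR test. The floor covers counting error only. The labels' replicate numbers were not treated as pairs, since same-numbered libraries did not deviate together. The step was tested on 10 simulated data sets of this comparison with a median of 16652.5 genes, where 51.8% of the genes set to change 1.5-fold and 77.5% of those set to change 2-fold passed. False calls made up 11% of all calls.

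Copies were rows annotated as pseudogenes, or as protein-coding with a pseudogene or Gm symbol, whose GENCODE M21 transcript matched a member's coding sequence with blastn 2.17.0. Of the 1400 matched rows 24 are annotated as protein-coding. Adding all of them was chosen after the data were seen. The other alternatives were DESeq2 1.42.0, limma-voom (limma 3.58.1), upper-quartile or RLE factors, no filter, a filter of 1 CPM in 3 libraries, the replicate number as a block, leaving out each library, other member sets and adding only pseudogene rows named for the gene.

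The members and all gene lists were chosen with earlier results of these data known, so no list was tested. Named are the 5 genes of smallest p per subunit, those past the test without 1 library, a fixed list of genes with known roles, the 3 highest and lowest per kilobase, and the 2 of smallest p per pathway list. Rps28, Rps29, Rpl21, Rpl35a and the copies were named after their values were seen. Some genes and sequences that this rule covers are not reported here.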

Additional observations from a re-analysis of the deposited data

How the results depend on the processing

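Among all genes 10 passed in edgeR, and 86 in DESeq2, 276 without the filter on low counts, 5 with the replicate block and 4 to 221 when each library was left out (21 without trained replicate 1, 4 without trained replicate 2, 221 without trained replicate 3). Large-subunit genes past the test went from 0 to 1 in DESeq2 and 1 without the filter (Rpl30, 0.461 and 0.467), and stayed at 0 when each library was left out. Small-subunit genes past the test ranged from 0 to 1 over those fits (Rps12, 0.636 without trained replicate 1). Genes higher without overlap ranged from 3 to 9 in the small and 7 to 14 in the large subunit when each library was left out, and over all genes from 12.3% to 14.7%, against 8.13% with all libraries. With the replicate block 0 members passed and the smallest member adjusted p was 0.575; same-numbered libraries had correlations of -0.182, -0.091 and -0.126, so the numbers are not taken to pair libraries. Signs turned in genes near 0 or resting on 1 library. When each library was left out, the log2 fold change ran from -0.164 to 0.024 for Rpl10 (above 0 without untrained replicate 2), from -0.557 to 0.064 for Rpl35a (above 0 without untrained replicate 2), from -0.029 to 0.017 for Rpl3, from -0.038 to 0.116 for Rps19, from -0.024 to 0.072 for Rps6 and from -0.214 to 0.646 for Rps27a (below 0 without trained replicate 1). With upper-quartile scaling Rpl3 was at 0.012. With all copies added Rpl21 was at 0.005 and Rpl38 at 0.005, and Rpl38 was at 0.014 with the named pseudogene rows. Where the fit itself does not show it, the cause was not tested. Medians of both subunits stayed above 0 under every setting run. Upper-quartile scaling moved the median of all genes to 0.017.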
